A study of Homo sapiens with 4 samples.

Results

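The noncoding host genes of small nucleolar RNAs (snoRNAs) described here are SNHG1, GAS5, SNHG5, SNHG6, SNHG8, SNHG12, SNHG15, SNHG16, SNHG17 and ZFAS1, which are 10 of the 62700 genes in the annotation. They were taken by name, and binding of the transcription factor c-MYC at their starts was read from 4 lists of chromatin immunoprecipitation sequencing (ChIP-seq) peaks. All libraries came from MIA PaCa-2, an established human line of pancreatic ductal adenocarcinoma, exposed for 8 h to AMG510 (100 nM), to trametinib (10 nM), a MEK inhibitor, or to DMSO alone as solvent. A c-MYC antibody was used after each treatment, and non-specific immunoglobulin (IgG) after DMSO only. A promoter peak is a peak whose summit, its highest point, was no more than 1 kb from a transcription start site (TSS) that GENCODE gives for the gene. Each group had 1 library, so no difference between libraries has a replicate check and no test between treatments was possible. Between 22700000 and 24800000 tags per library had entered peak calling.

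Small nucleolar RNAs guide the chemical modification of ribosomal RNA, box C/D snoRNAs by directing ribose methylation and box H/ACA snoRNAs by directing pseudouridylation. Most human snoRNAs are cut from introns of a host transcript, and in these hosts the spliced transcript itself is classed as noncoding. MYC is a basic helix-loop-helix factor that binds the E-box CACGTG with its partner MAX, and genes for ribosome production are among its best known targets. According to RefSeq, each of the 10 genes held at least 1 snoRNA, with 40 in all. Of these, 28 had a box C/D symbol, 10 a box H/ACA symbol and 2 neither. GAS5 held 11, SNHG1 held 9 and SNHG17 held 5, whereas SNHG6, SNHG8 and SNHG15 held 1 each.

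The DNA under the promoter peaks of these genes is shown first at its E-boxes, because every E-box found in the peaks is listed and their positions recur in the results. Sequences are from GRCh38, read 5′ to 3′ on the strand of the gene, with the E-box in capitals, and the distance is from the TSS of the GENCODE canonical transcript to the middle of the E-box. Searching both strands is the same for CACGTG, which is its own reverse complement.
SNHG15, 409 bp downstream, chr7:44986519-44986584, minus strand: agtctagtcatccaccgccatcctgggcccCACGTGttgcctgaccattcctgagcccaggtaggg
SNHG15, 539 bp downstream, chr7:44986389-44986454, minus strand: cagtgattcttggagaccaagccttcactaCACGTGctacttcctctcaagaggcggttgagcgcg
SNHG17, 395 bp downstream, chr20:38434953-38435018, minus strand: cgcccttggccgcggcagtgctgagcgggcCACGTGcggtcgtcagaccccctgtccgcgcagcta
GAS5, 412 bp downstream, chr1:173867544-173867609, minus strand: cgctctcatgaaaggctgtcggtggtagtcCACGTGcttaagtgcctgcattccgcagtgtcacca
SNHG5, 177 bp downstream, chr6:85678538-85678603, minus strand: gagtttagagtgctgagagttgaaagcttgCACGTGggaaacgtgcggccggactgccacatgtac
SNHG5, upstream at −547 bp, chr6:85679262-85679327, minus strand: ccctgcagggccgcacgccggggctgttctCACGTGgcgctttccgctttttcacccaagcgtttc
SNHG8, 251 bp downstream, chr4:118278927-118278992, plus strand: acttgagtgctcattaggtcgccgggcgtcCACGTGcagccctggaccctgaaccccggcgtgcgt
ZFAS1, 532 bp downstream, chr20:49279142-49279207, plus strand: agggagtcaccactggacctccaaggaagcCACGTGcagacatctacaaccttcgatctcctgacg
ZFAS1, 605 bp downstream, chr20:49279215-49279280, plus strand: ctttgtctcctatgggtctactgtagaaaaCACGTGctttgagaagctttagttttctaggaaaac

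Of these 9 E-boxes in 6 genes, 8 lay inside the host gene, 177 to 605 bp downstream of the canonical TSS. In 5 of the 9, the 8 bases read CCACGTGC on one of the strands, an extension looked at only after the sequences had been seen. The same extension was present at 27.4% of the 1355 E-boxes in all DMSO c-MYC promoter peaks. In AMG510 it was present at 30.6% of 614 and in trametinib at 29.7% of 576. The 9 E-boxes are pooled over the c-MYC lists, and those of ZFAS1 lay in drug peaks only. Short windows around 1 start per gene, taken from RefSeq (GRCh38.p14), were used for 8 of the 10 genes. SNHG6 was left out beforehand, and SNHG15 had no match. The 8 windows held 0 E-boxes, against 7.26% of the 35116 windows of all genes, and are too few to tell 0 from that share. The RefSeq start can differ from the GENCODE canonical TSS, as at GAS5 and SNHG12. A start of C followed by 4 pyrimidines, the form of the terminal oligopyrimidine tract known from ribosomal protein mRNAs, was present in 3 of these 8 (SNHG5, SNHG12 and ZFAS1), against 4.07% of all windows.

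In DMSO, c-MYC promoter peaks were present at 9 of the 10 host genes, all but SNHG1. In AMG510 they were present at 6, and in trametinib at the same 6, namely GAS5, SNHG5, SNHG8, SNHG15, SNHG17 and ZFAS1. SNHG6, SNHG12 and SNHG16 had a promoter peak in DMSO alone. The IgG list held 0. Of all genes, 10.8% had a promoter peak in the DMSO c-MYC list. The AMG510 list gave 7.25%, the trametinib list 5.41% and the IgG list 0.491%. Among the 18866 annotated lncRNA genes, the shares were 7.46%, 5.12%, 3.76% and 0.456%, respectively. The share of host genes with a promoter peak thus lay above that of lncRNA genes in each c-MYC list. A summit near any annotated start counts, and the host genes had from 6 (SNHG6) to 61 (SNHG17) distinct starts. The lncRNA genes were not matched for the number of starts. These genes had been named with c-MYC results of the same libraries known, so the excess is a description and not independent evidence.

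**Figure D1:**
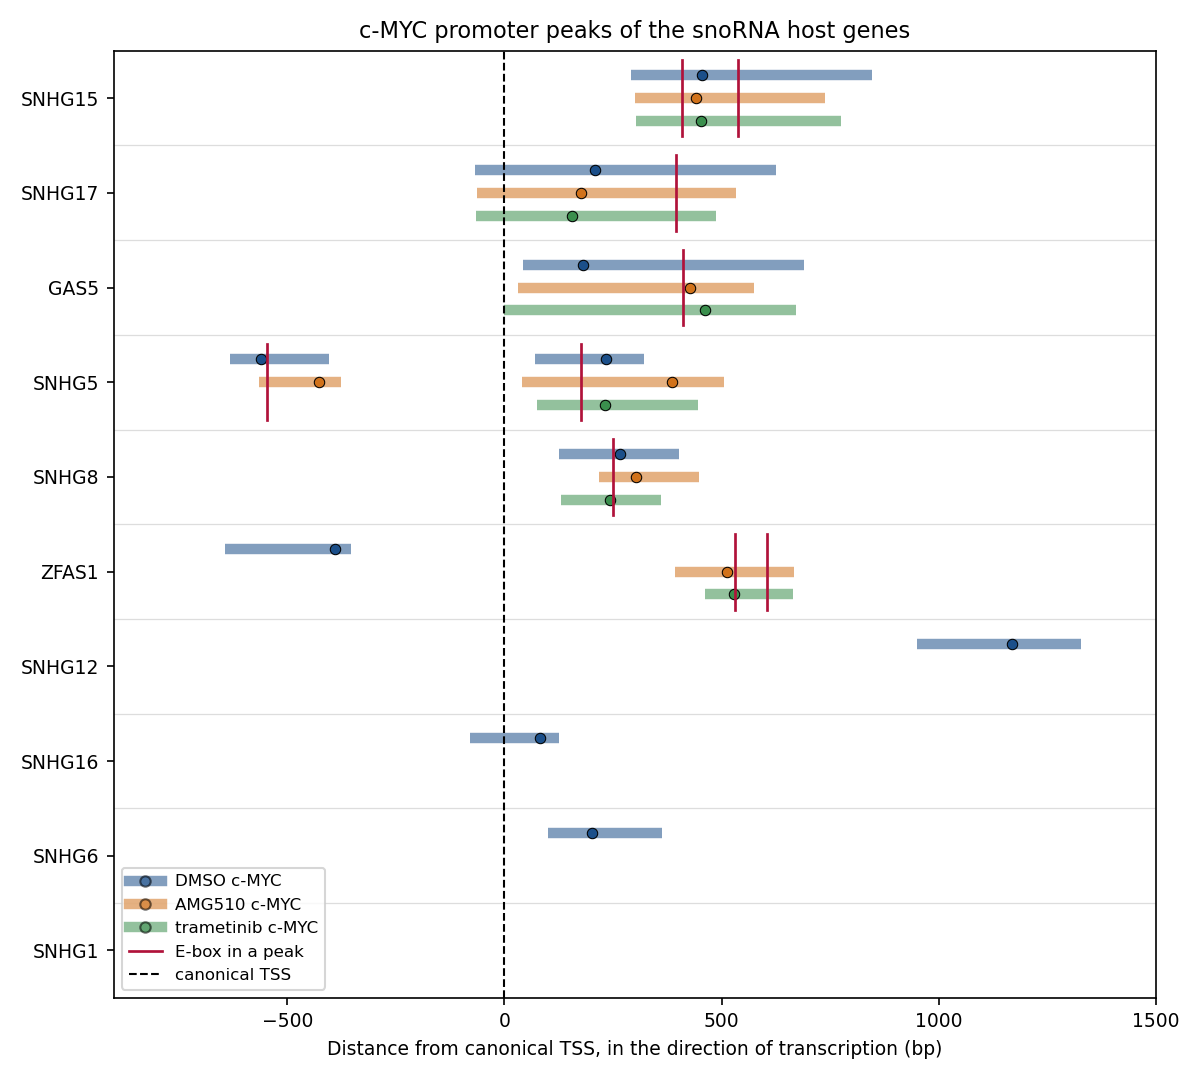
Promoter peaks of the 10 host genes, drawn as bars against the distance from the canonical TSS in bp (positive values are downstream), with a dot at each summit, 1 colour per c-MYC library and red lines at the E-boxes inside the peaks. The strongest summits of SNHG15, SNHG17, GAS5, SNHG5 and SNHG8 lie downstream of the TSS in each library, the ZFAS1 peaks of the drug libraries lie 746 and 813 bp away from the DMSO peak, and SNHG1 has none.

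The strongest peaks were those of SNHG15 and SNHG17. SNHG15 (ENSG00000232956, chromosome 7, 44983019 to 44986961, minus strand) contains SNORA9, an H/ACA snoRNA. Its DMSO peak ran from 44986115 to 44986669 and ranked 12th of 9552 by fold enrichment. This is the ratio of tags at the summit to the local background, with 1 added to each. The fold enrichment was 16.0 in DMSO, 13.5 in AMG510 (rank 20 of 10378) and 14.4 in trametinib (rank 12 of 5431). The summits, at 44986507, 44986520 and 44986508, were at most 13 bp apart. They fell in intron 1 of the canonical transcript, between the SNHG15 E-boxes shown above, 44, 31 and 43 bp from the nearer of them.

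SNHG17 (ENSG00000196756, chromosome 20, 38419638 to 38435409, minus strand) holds the SNORA71 group of H/ACA snoRNAs. The peak spanned the canonical TSS at 38435381 in each library, from 38434755 to 38435449 in DMSO, from 38434848 to 38435445 in AMG510 and from 38434894 to 38435446 in trametinib. Its fold enrichment was 14.4 in DMSO (rank 15), 8.50 in AMG510 (rank 112) and 11.8 in trametinib (rank 25). The summit was 208, 176 and 155 bp downstream of the TSS, respectively, in intron 1 of the canonical transcript in DMSO and in exon 1 under both drugs. The E-box of this peak was 187 to 240 bp from the summit.

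SNHG15 and SNHG17 had the most tags of the host genes, and their counts are given with counting intervals. The share of all promoter peaks whose intervals do not overlap between libraries was not computed. The intervals therefore only describe these genes. SNHG17 had 88 tags in DMSO (95% Poisson interval 70.6 to 108), 39 in AMG510 (27.7 to 53.3) and 61 in trametinib (46.7 to 78.4). SNHG15 had 97 tags in DMSO (78.7 to 118), 59 in AMG510 (44.9 to 76.1) and 69 in trametinib (53.7 to 87.3). These tags are unscaled, and tags were extended to 177 bp in DMSO, 157 bp in AMG510 and 163 bp in trametinib. Their intervals therefore do not compare the libraries directly. Scaled for the tags in calling and the length to which tags were extended in each library, the ratio of AMG510 to DMSO was 0.493 at SNHG17 (95% interval 0.329 to 0.727) and 0.677 at SNHG15 (0.482 to 0.946). For trametinib it was 0.728 (0.517 to 1.02) and 0.748 (0.541 to 1.03). Over all DMSO promoter peaks that a drug peak overlapped, the median of this ratio was 0.804 in AMG510 (1676 peaks, quartiles 0.645 and 0.982) and 0.788 in trametinib (1393 peaks, 0.623 and 0.967). The SNHG15 ratios lay within those quartiles, as did the trametinib ratio of SNHG17, and the AMG510 ratio of SNHG17 lay below them. Mates of a read pair can count as separate tags, so the intervals are too narrow, and they cover counting error only.

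**Figure D2:**
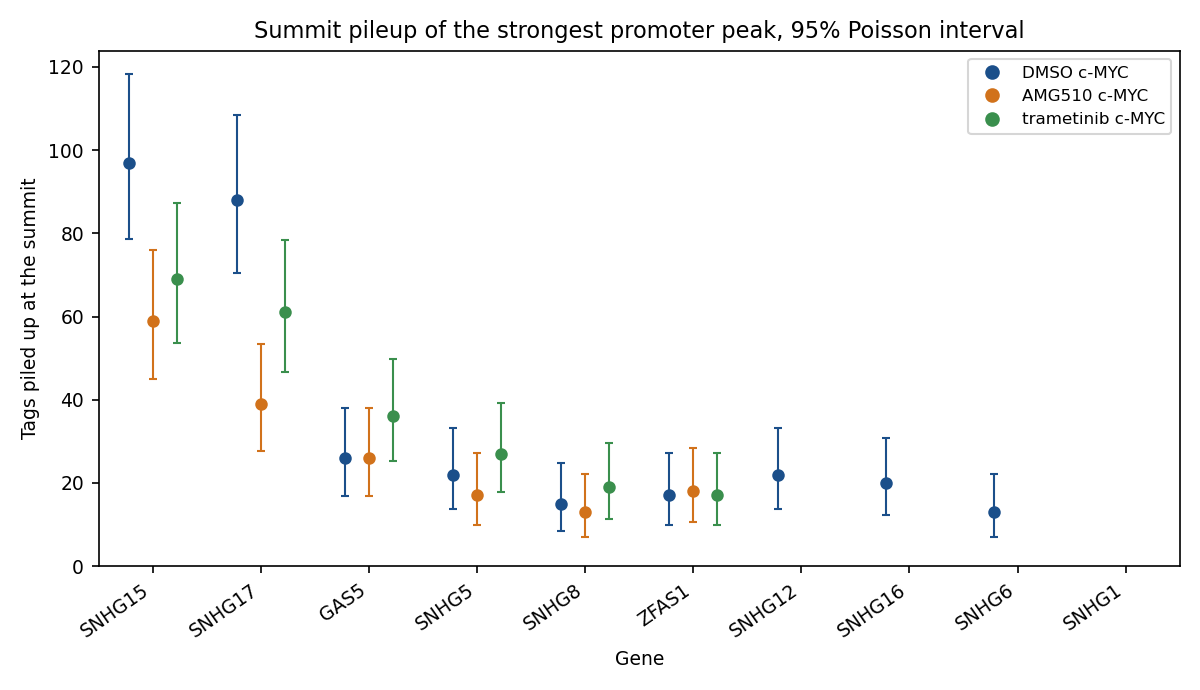
Tags piled up at the summit of the strongest promoter peak of each host gene (y axis) in each c-MYC library, with 95% Poisson intervals that cover counting error only and no replicates. SNHG15 and SNHG17 stand above the other genes in DMSO, with 97 and 88 tags against at most 26. The tags are not scaled between libraries.

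GAS5, SNHG5 and SNHG8 had weaker peaks, and their ratios to DMSO had intervals that included 1 in both drug libraries. GAS5 (ENSG00000234741, chromosome 1, 173858559 to 173868882, minus strand) is the growth arrest-specific host of 10 box C/D snoRNAs. Its peak ran from 173867300 to 173867947 in DMSO with 26 tags (16.98 to 38.1), from 173867415 to 173867958 in AMG510 with 26 tags (16.98 to 38.1) and from 173867317 to 173867991 in trametinib with 36 tags (25.2 to 49.8). The ratio to DMSO was 1.11 in AMG510 (0.621 to 2.00) and 1.46 in trametinib (0.854 to 2.51). Both lay above the upper quartile over all overlapped promoter peaks, as did the trametinib ratios of SNHG5 and SNHG8. By fold enrichment it ranked 3521 in the DMSO list, 1794 under AMG510 and 431 under trametinib, lists of different length, and it stood above 63.1%, 82.7% and 92.1% of its own list. Within the peak the summit was 182 bp downstream of the canonical TSS in DMSO and 427 and 463 bp downstream under the drugs. All of these positions are in intron 1. The E-box was 230 bp from the DMSO summit, 14 bp from that of AMG510 and 50 bp from that of trametinib. The peaks also covered SNORD74, the snoRNA nearest to the TSS, and this was the only host gene whose promoter peak overlapped a RefSeq snoRNA.

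SNHG5 (ENSG00000203875, chromosome 6, 85650491 to 85678932, minus strand), the host of SNORD50A and SNORD50B, had a peak with its summit in exon 1 in each c-MYC library. This peak ran from 85678426 to 85678678 in DMSO with 22 tags (13.8 to 33.3), from 85678243 to 85678707 in AMG510 with 17 (9.90 to 27.2) and from 85678302 to 85678673 in trametinib with 27 (17.8 to 39.3). The intervals overlapped throughout, and the ratio to DMSO was 0.860 in AMG510 (0.429 to 1.70) and 1.29 in trametinib (0.707 to 2.38). Its summits in DMSO and trametinib, at 85678515 and 85678516, were 1 bp apart and 55 and 54 bp from the downstream E-box. The AMG510 summit lay 154 bp away from that of DMSO and 209 bp from this E-box. A further peak upstream of the gene, from 85679153 to 85679381 in DMSO with 19 tags and from 85679124 to 85679314 in AMG510 with 16 tags, had no counterpart in trametinib. The upstream SNHG5 E-box shown above was 14 bp from the summit of this DMSO peak and 120 bp from that of the AMG510 peak.

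SNHG8 (ENSG00000269893, chromosome 4, 118278703 to 118285316, plus strand) contains the H/ACA snoRNA SNORA24. Its summits lay in exon 1 of the canonical transcript, in peaks from 118278834 to 118279109 in DMSO, from 118278925 to 118279156 in AMG510 and from 118278839 to 118279068 in trametinib. They held 15 tags (8.40 to 24.7), 13 tags (6.92 to 22.2) and 19 tags (11.4 to 29.7), and the intervals overlapped. The ratio to DMSO was 0.965 in AMG510 (0.423 to 2.17) and 1.33 in trametinib (0.641 to 2.81). The local background was low here, at 1.66 tags in DMSO, and the fold enrichment of 6.01 stood above 86.0% of the DMSO list. The single E-box was 15 bp from the DMSO summit, 50 bp from that of AMG510 and 8 bp from that of trametinib.

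ZFAS1 (ENSG00000177410, chromosome 20, 49278178 to 49299600, plus strand) starts beside ZNFX1, which is transcribed in the opposite direction, and contains SNORD12, SNORD12B and SNORD12C. It was the only host gene with promoter peaks in all c-MYC libraries whose DMSO peak was overlapped in neither drug list. The DMSO peak, from 49277998 to 49278289 with 17 tags (9.90 to 27.2), had its summit at −390 bp from the ZFAS1 canonical TSS, which is upstream of it. This summit was 19 bp from another annotated ZFAS1 start and 174 bp from the nearest ZNFX1 start. In AMG510 the peak ran from 49279036 to 49279310 with 18 tags (10.7 to 28.4) and in trametinib from 49279103 to 49279306 with 17 tags (9.90 to 27.2). The drug summits were 16 bp apart, in exon 2 of ZFAS1, 513 and 529 bp downstream of the canonical TSS. They were 19 and 3 bp from a further annotated ZFAS1 start and, likewise, 19 and 3 bp from the nearer ZFAS1 E-box. All 3 peaks were weak, with a fold enrichment of 3.75 in DMSO, 3.97 in AMG510 and 3.64 in trametinib, above 13.5%, 25.9% and 9.02% of their lists.

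The genes with a DMSO peak alone gave moderate peaks there. SNHG12 (ENSG00000197989, chromosome 1, 28578538 to 28583132, minus strand), host of SNORA16A, SNORA44, SNORA61 and SNORD99, had 22 tags (13.8 to 33.3) in a peak from 28581657 to 28582036, with a fold enrichment of 5.40. Its summit was 1170 bp downstream of the canonical TSS but 2 bp from the start of another annotated transcript, and it counts as a promoter peak only through the latter. SNHG16 (ENSG00000163597, chromosome 17, 76557727 to 76670985, plus strand), host of SNORD1A, SNORD1B and SNORD1C, had 20 tags (12.2 to 30.9) in a peak from 76557695 to 76557901, with a fold enrichment of 5.51 and the summit at 76557856 in exon 1. Neither peak held a CACGTG, although the noncanonical CACGCG, searched on both strands, was 69 bp from the SNHG16 summit and 127 and 204 bp from that of SNHG12.

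SNHG6 (ENSG00000245910, chromosome 8, 66920561 to 66926398, minus strand), host of SNORD87, had the fewest tags of the host genes in DMSO, 13 (6.92 to 22.2), in a peak from 66925227 to 66925491. The summit was in intron 1, 202 bp downstream of the TSS. The nearest drug summits were far away for all 3 genes, at 27231 to 138347 bp in AMG510 and 60068 to 963774 bp in trametinib. Had the background been that of DMSO, 8 tags at SNHG6, 10 or 11 at SNHG16 and 11 or 12 at SNHG12 would have sufficed for a call in the drug libraries. The pileup of the drug libraries at these sites is not known, so whether these peaks fell or stayed just under the limit was not tested.

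SNHG1 (ENSG00000255717, chromosome 11, 62851978 to 62855953, minus strand), host of SNORD22 and SNORD25 to SNORD31, had no promoter peak in any list. The nearest summit lay 11554 bp from an SNHG1 start in DMSO, 11420 bp in AMG510, 47671 bp in trametinib and 712544 bp in IgG. The canonical SNHG1 TSS is 82 bp from a start of SLC3A2, which encodes the heavy chain of amino acid transporters and is transcribed in the opposite direction. The lists give no value below the calling limit, so the signal at this start is not known.

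**Figure D3:**
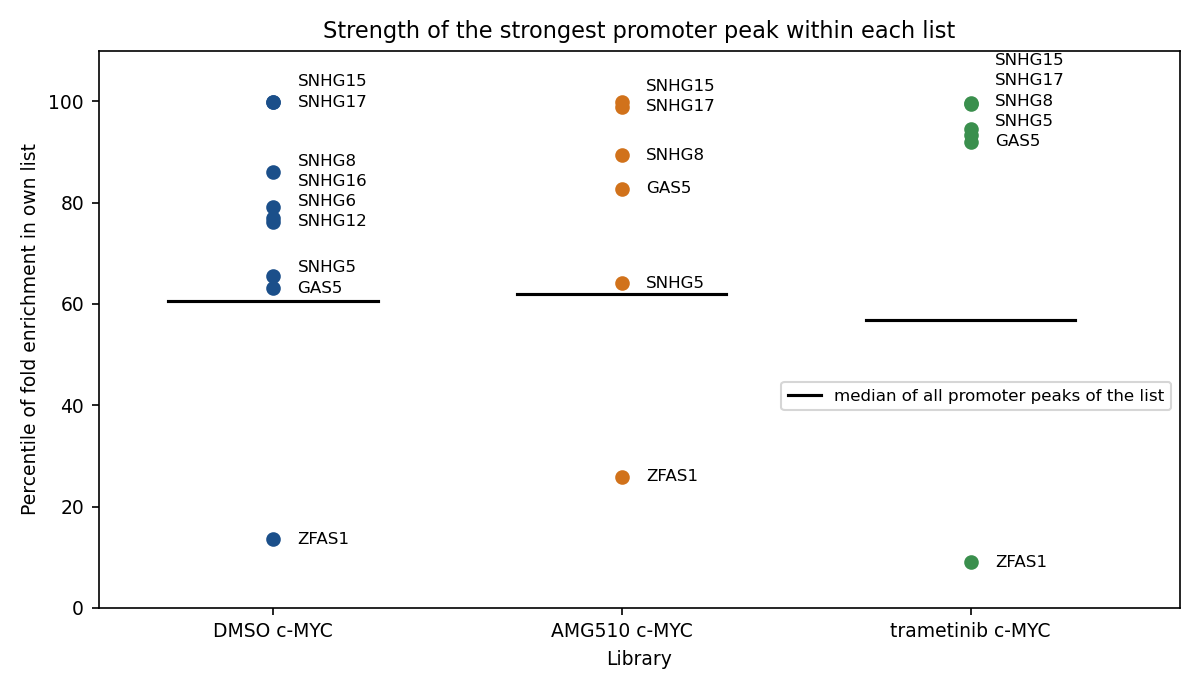
Percentile of fold enrichment within its own list (y axis, 0 to 100) for the strongest promoter peak of each host gene in each c-MYC library, with a black line at the median of all promoter peaks of that list. The median over the host genes is 77.0 for DMSO, 86.0 for AMG510 and 94.0 for trametinib, while ZFAS1 is the only gene below the line.

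Within their lists, the strongest peaks of most host genes ranked above the median promoter peak. The median percentile by fold enrichment was 77.0 over the 9 genes in DMSO, 86.0 over the 6 in AMG510 and 94.0 over the 6 in trametinib, beside medians of 60.6, 61.9 and 56.8 over all promoter peaks. The genes differ between DMSO and the drug lists, and the trametinib list is the shortest, so these medians were not compared with each other. ZFAS1 was the only gene below that median in each list. GAS5 (63.1) and SNHG5 (65.5) in DMSO and SNHG5 (64.1) in AMG510 lay close to it. Each host gene is represented by its strongest peak, whereas the promoter medians cover every promoter peak. The second peak of SNHG5 stood lower, at 44.4 in DMSO and 54.0 in AMG510. The median share of G and C around the strongest summits was lower than at promoter peaks in general. In DMSO it was 64.2% over the host genes (range 55.2% to 78.6%) against 71.6% over all promoter peaks, so the highest host gene lay above the latter. In AMG510 it was 58.0% (50.2% to 65.7%) against 70.6%. In trametinib, with the same 6 genes, it was 60.7% (48.3% to 65.7%) against 70.6%.

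Peak by peak, 5 of the 9 DMSO host genes were overlapped by an AMG510 peak, and the same 5 by a trametinib peak: GAS5, SNHG5, SNHG8, SNHG15 and SNHG17. Of all genes with a DMSO promoter peak, 36.0% were overlapped in AMG510 and 30.3% in trametinib. Both comparisons share the DMSO library. The 5 genes included the 2 strongest peaks and also GAS5 and SNHG5, which ranked below SNHG12 and SNHG16 by fold enrichment. By tags at the summit, GAS5 (26) lay above SNHG12 (22) and SNHG16 (20), and SNHG5 had 22.

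An E-box anywhere in the strongest DMSO peak did separate these genes, a pattern seen only after the peaks had been inspected. The strongest DMSO peaks of all 5 overlapped genes held a CACGTG. Those of the 4 others (SNHG6, SNHG12, SNHG16 and ZFAS1) held 0. The further DMSO peak upstream of SNHG5 also held a CACGTG, yet it was overlapped in AMG510 and not in trametinib. In the drug lists, all 13 promoter peaks of the host genes held one, including those of ZFAS1. These were 7 peaks in AMG510 and 6 in trametinib. Each trametinib peak overlapped an AMG510 peak of the same gene, so the same sites were counted in both lists. An E-box anywhere in the peak was found for 15.7% of all AMG510 promoter peaks and 20.3% of all trametinib promoter peaks. The host gene peaks were wider, with medians of 439 and 422.5 bp against 225 and 235 bp. Across all DMSO promoter peaks, an E-box was present in 40.6% (95% Wilson interval 37.4 to 43.95) of the 866 that both drug lists overlapped and in 15.5% (14.3 to 16.9) of the 2995 that neither did. The overlapped peaks were also wider, with medians of 454 and 247 bp, and a wider peak holds more sequence. Within 100 bp of the summit, a window of fixed size, the shares were 28.2% (25.3 to 31.3) and 12.4% (11.2 to 13.6). Among the host genes, the overlapped DMSO peaks were 253 to 695 bp wide and the others 207 to 380 bp. Whether strength or width accounts for the difference was not tested. Within 100 bp of the strongest summit, an E-box was present at 3 of 9 genes in DMSO, 4 of 6 in AMG510 and 5 of 6 in trametinib. The shares of all promoter peaks were 16.8%, 13.1% and 16.5%, and 4.03% in IgG. In DMSO the 3 genes were SNHG5, SNHG8 and SNHG15. At this distance GAS5 and SNHG17 lacked an E-box in DMSO, as did the 4 genes that were not overlapped.

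Host gene summits tended to lie downstream of the canonical TSS. This was so for 8 of 9 genes in DMSO, all but ZFAS1, and for 6 of 6 in both AMG510 and trametinib, with median distances of 208, 407 and 348 bp. Over all genes with a promoter peak, 59.9%, 61.3% and 59.9% of the strongest summits were downstream, with medians of 104, 118 and 107 bp. For lncRNA genes the shares were 42.4%, 45.1% and 46.1%. In DMSO, SNHG16 (81 bp) and ZFAS1 lay less far into the gene than the median of all genes. Starts other than the canonical one are annotated for each host gene, and the strongest summit was 2 to 163 bp from the nearest of them. In 4 of the 10 genes a protein-coding gene also starts within 1 kb of a TSS (SLC3A2 at SNHG1, ZBTB37 at GAS5, ZNFX1 at ZFAS1 and an unnamed gene model, ENSG00000271793, on the same strand at SNHG5). There the peak cannot be assigned to the host gene alone. Of the other 6 genes, 6 had a promoter peak in DMSO, whereas 3 did under AMG510 and 3 under trametinib.

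**Figure D4:**
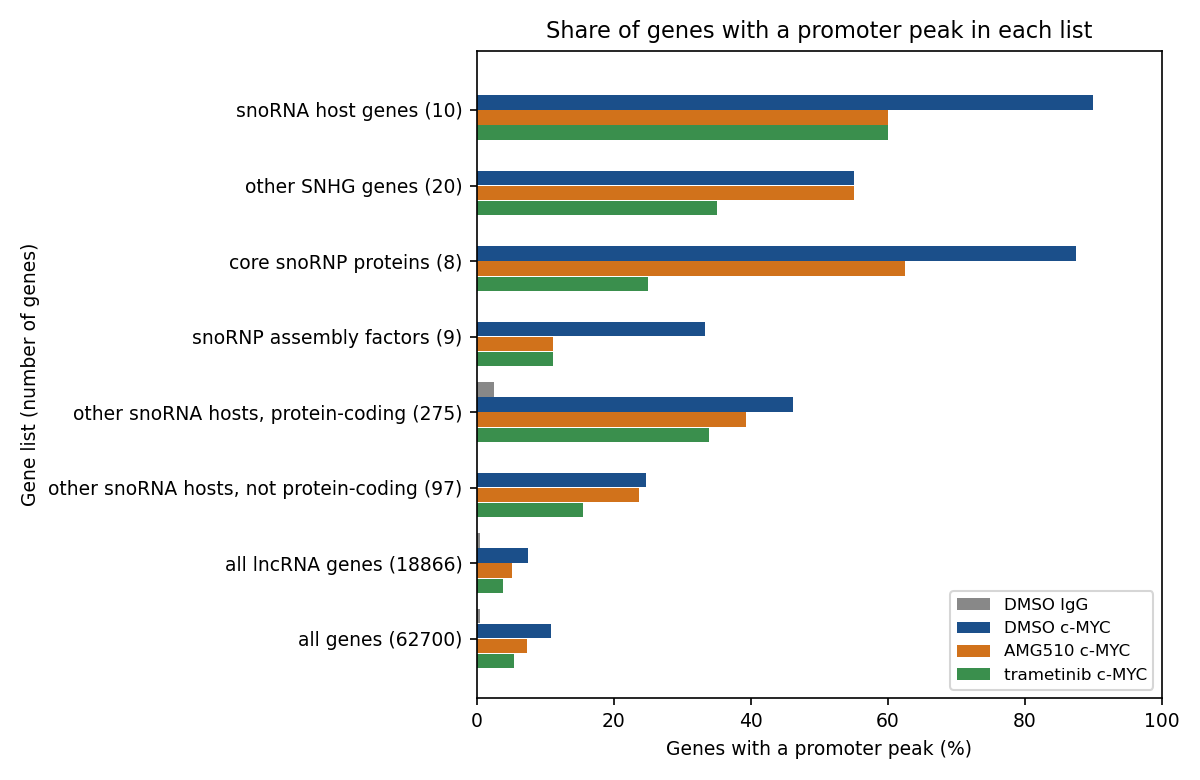
Share of genes with a promoter peak (x axis, 0 to 100%) in each of the 4 lists, for the 10 host genes, companion lists (which share some genes) and all annotated genes, with the number of genes in brackets and bars from 0. The host genes stand at 90% in DMSO and 60% in both drug lists, and the IgG share is 0 for the host genes.

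Among the 20 other SNHG genes, the DMSO list gave promoter peaks at 11, the AMG510 list at 11, the trametinib list at 7 and the IgG list at 0. The shares of all lncRNA genes were 7.46%, 5.12%, 3.76% and 0.456%, and those of all genes 10.8%, 7.25%, 5.41% and 0.491%, respectively. Of the 20, 6 genes had a promoter peak in all c-MYC libraries (SNHG4, SNHG7, SNHG9, SNHG10, SNHG25 and SNHG26). SNHG26 was the strongest of them, with a fold enrichment of 11.4 in DMSO, 11.6 in AMG510 and 10.5 in trametinib (ranks 65, 34 and 39). SNHG7 ranked 115, 68 and 795, and SNHG10 260, 3286 and 1698. SNHG3, SNHG11, SNHG20 and SNHG29 had a peak in DMSO and AMG510, SNHG19 in DMSO and trametinib, and SNHG22 in AMG510 alone.

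The genes of 7 of the 8 core proteins of snoRNA particles carried promoter peaks in DMSO. AMG510 gave 5, trametinib 2 and IgG 0. The shares of all genes were 10.8%, 7.25%, 5.41% and 0.491%, respectively. Protein-coding genes were not counted on their own, so these counts and those of the assembly factors cannot be set against their share. FBL, which encodes the methyltransferase fibrillarin, ranked 263 in DMSO and 9209 in AMG510 and was not in the trametinib list. NOP56, a box C/D core protein whose gene itself holds 5 annotated snoRNAs, and DKC1, the pseudouridine synthase, had a peak in each c-MYC library, with ranks of 1726, 1090 and 1127 for NOP56 and 758, 491 and 1421 for DKC1. GAR1 and NOP58 were present in DMSO and AMG510, NHP2 and SNU13 in DMSO alone, and NOP10 in none. Of the 9 assembly factors, RUVBL1 had a peak in each c-MYC library (ranks 569, 2237 and 730), RPAP3 and ZNHIT3 had one in DMSO, and the other 6 had none.

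Outside the host genes described here, GENCODE places snoRNAs inside 275 protein-coding genes and 97 genes of other types, though it lists none inside GAS5. These lists again include the other SNHG genes, NOP56, NOP58 and DKC1, so their counts are not separate from those above. Promoter peaks were present at 127 of the 275 in DMSO, with 108 under AMG510, 93 under trametinib and 7 for IgG, and at 24, 23, 15 and 0 of the 97. Of all genes, the shares were 10.8%, 7.25%, 5.41% and 0.491%, respectively. Protein-coding genes were not counted on their own. The 6 with the highest lowest percentile over the c-MYC lists were RPL5, SNHG26, RPS3A, MRPL3, PRRC2B and SNX5. RPL5, which encodes a large-subunit ribosomal protein, ranked 9, 16 and 19, close to SNHG15 at 12, 20 and 12. Its lowest percentile over the lists was 99.7, beside 99.8 for SNHG15 and 98.9 for SNHG17. By the same measure, the first 5 of the 290 lncRNA genes with a peak in all c-MYC lists were FAM230C, ENSG00000286874, ENSG00000276216, SNHG26 and BRWD1-AS2. The FAM230C peak ranked 1 in each c-MYC list, and BRWD1-AS2 shares its DMSO peak with BRWD1.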

How the data were processed

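Peak lists from 4 libraries were used, 1 per group, with groups taken from sample titles. The authors ran Trimmomatic 0.39 and BWA 0.7.17 (GRCh38), filtered alignments by mapping quality, dropped duplicates, called peaks in each library with MACS2 2.2.7.1 at its defaults and took out an exclusion list. The deposited score is −log10 q times 10, and the deposited −log10 p-value and q-value describe the summit. The deposited fold enrichment is a ratio of summit pileup to local background, with 1 added to each. Fold enrichment and p-value were solved together for the whole-number pileup, which matched 100% of peaks within 0.001 in −log10 p. The calling depth follows from the commonest background and a genome of 2700000000 bp, and Poisson intervals cover counting error only.

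Summits were assigned within 1 kb of any TSS in GENCODE 44 with Python 3.11.15 and pysam 0.24.0, tested on simulated data. RefSeq GRCh38.p14 gave snoRNAs and promoter windows. Coordinates are 1-based. Peaks overlapping by at least 1 bp were taken as shared. Alternatives were other windows, TSS sets, peak filters, rank measures, overlaps and E-box windows. All members were named, as were members of the SNHG, core and assembly lists with a c-MYC peak, the 6 other hosts and the 5 lncRNA genes of highest lowest percentile, and neighbours within 1 kb. The members and lists were chosen with earlier results of these data known.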

Additional observations from a re-analysis of the deposited data

How the results depend on the processing

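No paired analysis was possible because every treatment had a lone library, which also left no replicate to omit. The 12 results were recomputed 55 times under other settings, and 42 of these values were counts within 1.5 times of the reported one, while 13 differed by more (counts) or lay outside the 95% binomial interval of the reported percentile. A score above 60 left 3 host genes with a promoter peak in AMG510, and leaving out the 4 genes with a protein-coding start within 1 kb, an alternative chosen after seeing the data, left 3 in AMG510 and 3 in trametinib. An E-box within 50 bp of the summit was found at 3 genes in trametinib. The median percentile moved under each other ranking: to 82.7 by q-value, 86.4 by pileup and 67.7 among promoter peaks in DMSO, to 90.2, 95.2 and 77.5 in AMG510, and to 96.0, 96.8 and 90.8 in trametinib. The cause was not tested. With the canonical TSS alone, DMSO had 8 host genes, since SNHG12 was lost. The reading of lost peaks is limited by depth, as a peak of 13 tags has an interval of 6.92 to 22.2.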
